A study of Sus scrofa with 6 samples.

Results

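PIP and the genes KRT19, EPCAM, CDH1, LTF and PIGR, all products of glandular epithelium, were followed in pig backfat. The members were every probe set of the array whose single gene symbol is one of these 6, with no filter on dim signals, which gave 8 of 24123 probe sets. PIP, KRT19, EPCAM and LTF had 1 probe set each, and CDH1 and PIGR had 2 each. PIP was selected on its measured signals: in an earlier analysis of these arrays it had the largest rise in castrated males of any named gene, with its highest signal in 1 pool. The other 5 genes were listed to ask whether they follow PIP from pool to pool, with earlier results known. The differences of the members between the groups are therefore descriptions, with no test.

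The backfat came from 3 pools of barrows (castrated males) and 3 pools of boars (intact males), all at 175 days of age. Per the labels, 15 pairs of full brothers, hybrids of Pietrain and Landrace, entered the study, and 1 brother of each pair lost both testes at 7 days of age. All were kept alike and fed freely. Fat from the middle backfat layer at the 6th rib was frozen, and RNA from 5 animals of a kind was pooled for each of the 6 Affymetrix arrays. A replicate is thus a pool of 5 pigs, and whether 1 animal or all 5 carry a high value in a pool cannot be told apart.

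PIP, the prolactin-inducible protein, is a small secreted protein of sweat, salivary, lacrimal and mammary glands, and hormones such as prolactin and androgens act on its expression in human breast cells. Such glands contain a secretory epithelium whose cells carry the keratin KRT19, the surface protein EPCAM and the junction protein CDH1 (E-cadherin). Many of them also release LTF (lactoferrin, an iron-binding antimicrobial protein that neutrophils store too) and use PIGR to carry polymeric immunoglobulin into the secretion. Fat cells are not epithelial.

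The values are MAS5 signals, the intensity that the Affymetrix software gives each probe set on a linear scale, here in arbitrary units. Median signals ran from 162 to 173 over the 6 arrays. The tissue label held: the adipocyte genes ADIPOQ and FABP4 had signals of 18954 to 23039 and 15578 to 18764 in barrow pools, and of 21686 to 23053 and 17794 to 19692 in boar pools. On the first principal component of the upper 60% of probe sets by mean signal, with 32.3% of the variance, barrow replicate 2 lay at -21.0, beyond the other barrow pools at -10.9 and -5.82. On the second, with 26.0% of the variance, it lay at -16.9, against 13.8 and 17.9 for the other barrow pools and -11.7, -4.18 and 1.0 for the boar pools. Without detection calls, no dim signal is shown to stand above background.

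PIP had signals of 207, 1508 and 219 in barrow pools 1 to 3, against 13.7, 3.83 and 29.9 in boar pools 1 to 3. Each barrow pool was above each boar pool, and barrow replicate 2 was 7.08 times the mean of the other 2 barrow pools. The mean was 645 ± 748 in barrows and 15.8 ± 13.1 in boars (SD, n = 3 each). Ranked among all probe sets of an array, PIP stood at percentiles 53.8, 89.5 and 55.1 in barrow pools, against 13.1, 4.16 and 20.6 in boar pools. Its boar signals thus lay among the dimmest of the array. The difference on the log2(signal + 16) scale, barrow minus boar, was 3.84 (SE 0.66). This SE, like the others, came from limma, which draws a probe set's spread toward that of probe sets of similar signal. The SDs of PIP itself on this scale were 1.58 in barrow pools and 0.60 in boar pools (n = 3 each). The difference was 2.93 without barrow replicate 2, and 2.64 and 4.63 with 64 and 4 added in place of 16. Its size thus rests both on barrow replicate 2 and on how the dim boar signals are treated. Whether fewer gland cells or less RNA per cell lie behind a low signal cannot be told apart in pooled tissue.

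KRT19, a filament protein of duct-lining and other simple epithelia, had signals of 49.6, 59.6 and 77.9 in barrow pools, against 8.65, 3.58 and 10.4 in boar pools. The groups did not overlap, and the highest pool was barrow replicate 3, not the one that led PIP. Its log2 difference of 1.73 (SE 0.26) came next to that of PIP among the members. In boar pools KRT19 and PIP shared their order, lowest in boar replicate 2 and highest in boar replicate 3. None of the remaining member probe sets had this order, and nothing is read from the order of such dim signals.

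EPCAM, the adhesion molecule of epithelial cell surfaces, had 76.2, 93.0 and 71.7 in barrow pools, against 40.0, 38.6 and 15.9 in boar pools. The groups did not overlap, barrow replicate 2 was the highest, and the log2 difference was 1.06 (SE 0.29). CDH1, which joins epithelial cells to each other, had 105, 139 and 74.0 in barrow pools and 63.6, 65.9 and 59.5 in boar pools at its brighter probe set. Again every barrow pool was above every boar pool and barrow replicate 2 led, with a log2 difference of 0.59 (SE 0.25). The dimmer probe set of CDH1 did not show this: it had 23.1, 8.82 and 7.42 in barrow pools and 16.8, 36.9 and 2.01 in boar pools, with a log2 difference of -0.15 (SE 0.40) and its highest value in a boar pool.

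LTF had 54.3, 101 and 55.8 in barrow pools, against 14.8, 15.6 and 25.2 in boar pools. Of the other members it came closest to the profile of PIP within the barrows: barrow replicate 2 was 1.84 times the mean of the other 2 barrow pools, which were nearly level. The groups did not overlap, and the log2 difference was 1.30 (SE 0.29). PIGR, the receptor that moves immunoglobulin A through gland cells, had 28.8, 40.3 and 8.41 in barrow pools, against 7.18, 8.98 and 5.49 in boar pools at its brighter probe set. Barrow replicate 2 led here as well, but barrow replicate 3 lay within the boar range, and the log2 difference was 0.77 (SE 0.33). The other PIGR probe set stayed between 1.44 and 2.81 in barrow pools and between 1.30 and 4.35 in boar pools, the lowest signals of any member.

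**Figure D1:**
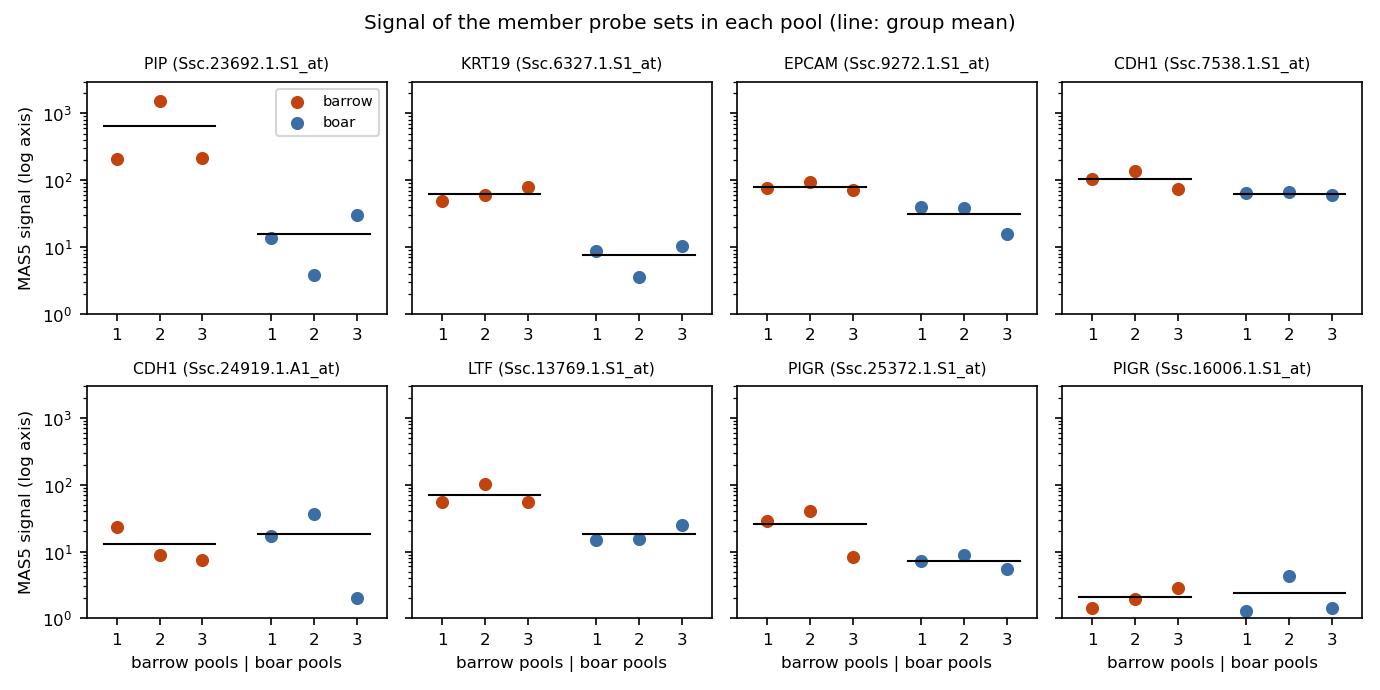
MAS5 signal (log axis, arbitrary units) of the 8 member probe sets in barrow pools 1 to 3 (orange, left) and boar pools 1 to 3 (blue, right), with a line at each group's mean. In 5 of the 8 panels every barrow point lies above every boar point, PIP reaches 1508 in barrow replicate 2, and the dimmer CDH1 and PIGR probe sets show no gap between the groups.

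Beside PIP, which was chosen for its rise in barrows, 4 of the 7 other member probe sets had all 3 barrow pools above all 3 boar pools, and 0 had them below. Over all 23999 probe sets compared (124 control probe sets were left out), 7.32% had barrows entirely above boars and 7.76% entirely below. Of the 7 probe sets other than PIP, 4 were highest of all pools in barrow replicate 2, as PIP was (EPCAM, the brighter CDH1, LTF and the brighter PIGR), where 18.2% of all probe sets were. Among probe sets outside the upper 60% by mean signal, where those 7 lie, these 2 shares were 5.66% and 15.9%. The median log2 difference of the 7 was 0.77, against -0.01 over all probe sets.

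Of the 7 other member probe sets, which belong to 5 genes, 5 were higher in barrows, where 49.0% of all probe sets were. The remaining differences, of the dimmer CDH1 and PIGR probe sets, were -0.15 and -0.02. Those that shared the leading pool of PIP were less steep there. PIP was chosen for its rise with its highest signal in 1 pool, so nothing is read from its being the steepest. In barrow replicate 2 PIP was 7.08 times the other barrow pools, while the brighter PIGR probe set was 2.17 times, LTF 1.84 times, the brighter CDH1 1.55 times and EPCAM 1.26 times, and KRT19 was below them at 0.94. The pools form 2 separate clusters in PIP, with 3 pools in each, so no correlation over the 6 pools is given and none within a group can be tested. In the comparison fitted across all 23999 probe sets (limma, adjusted p under 0.05), 61 were called higher in barrows (0.254%) and 35 lower (0.146%). Among the 8 member probe sets 1, that of KRT19, was in the first set, and 6 had an unadjusted p under 0.05, as 2290 of all 23999 had (9.54%). Nothing is read from these counts, since the same contrast chose PIP. The KRT19 call was lost without any 1 of the 6 pools, and PIP, not KRT19, was called without barrow replicate 2.

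The probe sets whose profile over the 6 pools was most like that of PIP were found by the root mean square difference of log2(signal + 16), each profile centred on its own mean. This measure favours probe sets that are high in barrows and highest in barrow replicate 2, so these features of the following genes are fixed by the choice and carry no test. Among probe sets with a symbol the nearest 8 belonged to 7 genes, in order CBR1, PHEROC, CHIA, LOC100737483, GSTA1 with 2 probe sets, SCGB1D1 and KRT19. LTF ranked 12 among all probe sets, EPCAM 89, the brighter PIGR 118 and the brighter CDH1 315.

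PHEROC and SCGB1D1 are both secretoglobins, small proteins that glands secrete. PHEROC encodes a subunit of pheromaxein, the protein of boar saliva that carries the odorous steroids of the boar, and the RefSeq table gives SCGB1D1 the synonym PHEROA and lists it next to PHEROC. PHEROC had 211, 432 and 177 in barrow pools, against 3.58, 6.80 and 54.0 in boar pools, a root mean square difference from PIP of 0.76. SCGB1D1 had 70.8, 137 and 106 in barrow pools, against 15.6, 31.1 and 26.6 in boar pools, at a distance of 1.42. No barrow pool overlapped a boar pool in either gene, and barrow replicate 2 was 2.23 and 1.55 times the mean of the other barrow pools. They are the only secretoglobins that carry a symbol on the array (family chosen after their values were seen).

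CBR1, a carbonyl reductase that acts on steroids and prostaglandins, had 278, 469 and 241 in barrow pools, against 0.317, 8.80 and 21.4 in boar pools. CHIA, a chitinase secreted by epithelia, had 201, 401 and 222 in barrow pools, against 1.57, 14.1 and 22.8 in boar pools. Both had boar signals as dim as those of PIP and lay at distances of 0.73 and 0.78 from it. Barrow replicate 2 was 1.81 times the other barrow pools in CBR1 and 1.89 times in CHIA. This was again less than in PIP, which was chosen with its lead in that pool known.

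GSTA1, a glutathione transferase of the alpha class, had 130, 196 and 181 in barrow pools, against 54.3, 7.97 and 17.1 in boar pools at one probe set. At another it had 154, 176 and 115 in barrow pools, against 3.80, 32.0 and 15.1 in boar pools. Its remaining probe set did not show the gap, with 2.56, 80.2 and 16.2 in barrow pools and 26.4, 2.70 and 16.1 in boar pools, and the array may not separate the near-identical members of this family. LOC100737483, which the RefSeq table lists beside the keratin KRT6A, had 69.5, 103 and 45.9 in barrow pools, against 4.75, 3.84 and 13.7 in boar pools.

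The nearest probe set of all had no symbol. Ssc.25625.1.S1_at had 534, 1289 and 565 in barrow pools, against 41.6, 58.5 and 41.3 in boar pools, a distance of 0.70. The other one without a symbol, Ssc.31141.1.A1_at, had 159, 284 and 119 in barrow pools and 23.4, 57.7 and 29.2 in boar pools. Of these 10 probe sets 6 lay in the upper 60% of the array by mean signal, and 1, Ssc.25625.1.S1_at, in the upper 60% by mean log2(signal + 16). Every barrow pool was at least 4-fold above every boar pool, as signal + 16, in 4 of all 23999 probe sets (0.0167%), a size chosen after seeing the data. These were PIP, CBR1, CHIA and Ssc.25625.1.S1_at, and 0 probe sets lay as far the other way.

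**Figure D2:**
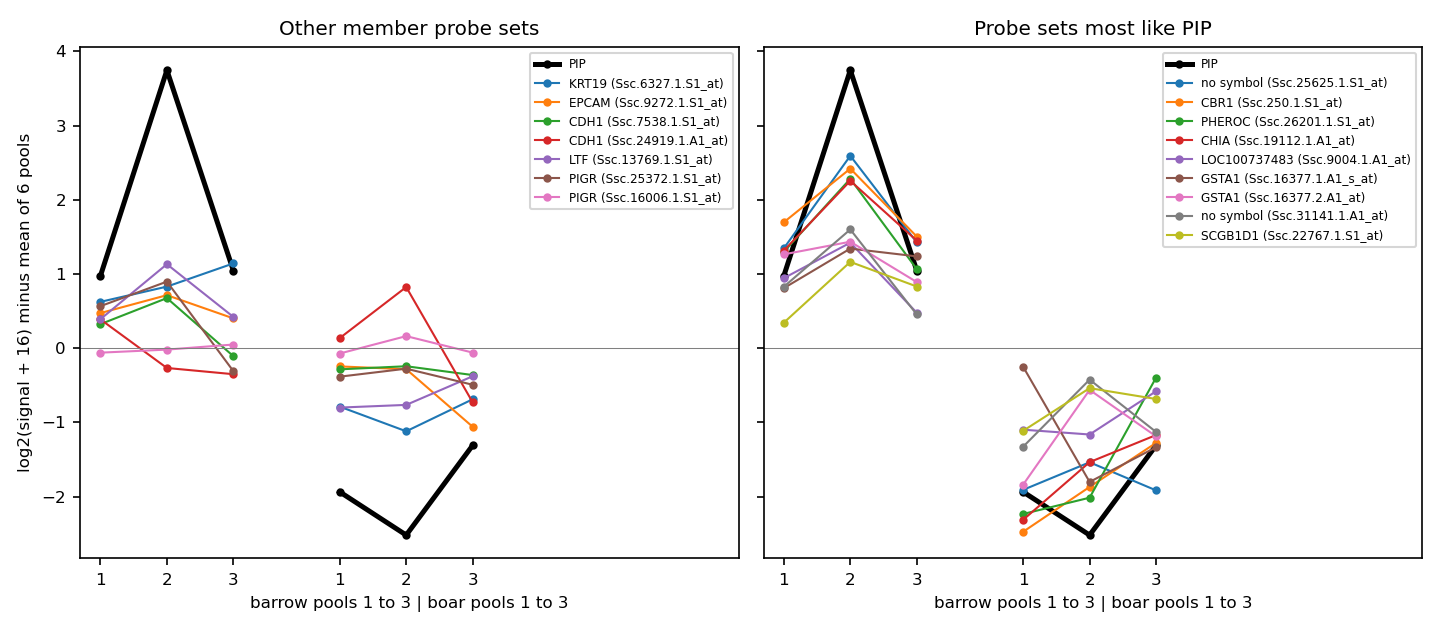
log2(signal + 16) minus the mean of the 6 pools, in barrow pools 1 to 3 and then boar pools 1 to 3. PIP is the thick black line in both panels. The left panel holds the other 7 member probe sets. The right panel holds the 10 probe sets chosen as most like PIP, less KRT19, which leaves 9. On the left, 4 of the 7 lines peak in barrow replicate 2 with PIP but lower, while KRT19 is highest in barrow replicate 3. On the right all 9 peak there, also lower than PIP, which the choice by likeness to PIP favours.

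Other genes of gland epithelium were compared as lists. Of 17 measured luminal epithelium genes, 0 rose and 0 fell in barrows (limma, adjusted p under 0.05), 2 had an unadjusted p under 0.05 (9.54% of all probe sets had, which applies to the lists that follow too), and the median log2 difference was -0.08. KRT8, a keratin of the same simple epithelia as KRT19, had 158, 95.8 and 138 in barrow pools and 155, 124 and 174 in boar pools at its brighter probe set, with a log2 difference of -0.20 (adjusted p = 0.85), and 0.75 at its dimmer one. The tight-junction protein CLDN4 had 217, 187 and 136 in barrow pools and 174, 155 and 133 in boar pools (0.19, adjusted p = 0.83).

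Of the 17 luminal genes 2 had barrows entirely above boars and 1 entirely below, against 7.32% and 7.76% of all probe sets. The 2 were the protease inhibitor SPINT2 and the splicing factor ESRP1, both highest in barrow replicate 2. SPINT2 had 131, 180 and 125 in barrow pools, against 116, 89.2 and 71.5 in boar pools (0.58, limma adjusted p = 0.46). Its dimmer probe set overlapped, with 66.6, 43.3 and 30.1 in barrow pools and 46.5, 12.4 and 47.7 in boar pools (0.33, limma adjusted p = 0.85). ESRP1, named after its values were seen, had 24.9, 63.8 and 41.7 in barrow pools, against 24.0, 22.0 and 18.7 in boar pools (0.61, limma adjusted p = 0.57). GATA3, a transcription factor of luminal cells and also of T cells, lay the other way, with 197 to 212 in barrow pools and 215 to 305 in boar pools at its brightest probe set (-0.38, adjusted p = 0.51). At its other 3 probe sets the groups overlapped, with differences of -0.11, 0.13 and 0.21. MAL2, a membrane traffic protein, was bright in all pools, at 2908 to 3835 in barrows and 3350 to 3899 in boars (-0.10, adjusted p = 0.82).

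Of 17 measured genes of gland secretions, 0 rose and 0 fell, 3 had an unadjusted p under 0.05, and the median log2 difference was 0.11. AZGP1, a secreted glycoprotein that binds PIP in human seminal fluid and that fat cells also make, had 1298, 1540 and 1245 in barrow pools, against 924, 1161 and 785 in boar pools. Its groups did not overlap and barrow replicate 2 was highest, at a log2 difference of 0.51 (limma adjusted p = 0.21, and AZGP1 was called with the replicate number as a block). A dimmer AZGP1 probe set had 0.07 (adjusted p = 0.97). The antiprotease SLPI had 7724 to 8900 in barrows and 7405 to 7822 in boars (0.11, adjusted p = 0.70). SAL1, a pheromone-binding lipocalin of boar saliva, lay opposite to PHEROC and SCGB1D1, with 3869, 3454 and 3781 in barrow pools and 8215, 5006 and 7927 in boar pools (-0.89, limma adjusted p = 0.065, and called with the replicate number as a block).

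The milk protein WAP and WFDC2, a secreted protein of duct epithelia, had differences of 0.85 and 0.59 and signals of 51.4 to 109 and 58.4 to 130 in barrow pools, against 17.0 to 91.3 and 45.7 to 64.4 in boar pools (limma adjusted p = 0.59 and 0.57). The casein CSN1S1 and the water channel AQP5 of secretory cells were dim. CSN1S1 had 28.3 to 41.4 in barrow pools and 17.2 to 18.4 in boar pools, without overlap (0.57, limma adjusted p = 0.48). AQP5 averaged 8.32 ± 2.31 in barrow pools and 24.3 ± 20.5 (SD, n = 3 each) in boar pools (-0.61, limma adjusted p = 0.64). Of the 17 secretory genes 2, AZGP1 and CSN1S1, had barrows entirely above boars and 1, SAL1, entirely below. Over all probe sets these shares were 7.32% and 7.76%.

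Keratins and skin genes were examined as markers of epithelia and of skin. The array named 6 keratin genes with 7 probe sets (a family chosen by symbol after seeing the data, so without LOC100737483, listed beside KRT6A). Besides KRT19, 0 of these probe sets had barrows entirely above boars, and 1, that of KRT10, had them entirely below. Over all probe sets 7.32% lay entirely above and 7.76% entirely below, so nothing is read from these counts. The epidermal keratin KRT10 had 287 to 305 in barrow pools and 307 to 363 in boar pools (-0.17, limma adjusted p = 0.73), and KRT1 had 29.1 to 44.8 in barrow pools and 5.96 to 54.4 in boar pools. Of 7 epidermis and hair follicle genes, 8 myoepithelial genes and 8 epithelial junction genes measured, 0 passed the test in either direction (1 of each list had an unadjusted p under 0.05), with median differences of 0.20, -0.04 and -0.00. ACTA2, the actin of myoepithelium and of vessel walls, had 6194 to 9104 in barrow pools and 9113 to 10257 in boar pools (-0.32, limma adjusted p = 0.47), and the contractile proteins CNN1 and MYLK had 0.26 and -0.13 (adjusted p = 0.80 and 0.91). SFN and KRT2, both of stratified epithelium, had 0.30 and 0.20 (adjusted p = 0.79 and 0.88). The junction genes CTNNB1, which binds E-cadherin in most cells, PPL and OCLN had 0.09, -0.47 and -0.04 (limma adjusted p = 0.81, 0.45 and 0.93). PERP, a desmosome protein of stratified epithelia, had 116, 80.2 and 92.3 in barrow pools, against 53.3, 36.4 and 49.0 in boar pools (0.85, limma adjusted p = 0.24), highest in barrow replicate 1. Summed over the epidermal list, signals ran from 611 to 664 in barrow pools and from 544 to 626 in boar pools, and the part of skin in the values of PIP was not tested.

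LTF is also a granule protein of neutrophils, and PIGR works on immunoglobulin from plasma cells. Of 11 measured neutrophil and antimicrobial genes 0 passed the test (1 had an unadjusted p under 0.05) and the median difference was -0.00. The calprotectin subunit S100A9 had 171, 216 and 173 in barrow pools, against 162, 156 and 156 in boar pools (0.22, limma adjusted p = 0.75). The antibacterial protein BPI had 0.07 (adjusted p = 0.97) and the receptor FCGR3A, which macrophages also carry, -0.30 (adjusted p = 0.44). S100A9 was highest in barrow replicate 2, as 6 of the 11 were, against 18.2% of all probe sets. So were 6 of the 17 luminal genes, but 0 of the 8 myoepithelial genes and 0 of the 6 plasma cell genes. The counts were 4 of 17 for gland secretions, 2 of 7 for epidermis and 2 of 8 for junctions. In the lists described below they were 4 of 11 for hormone signalling and 3 of 7 for binding partners of PIP. They were 4 of 13 for adipocyte genes and 4 of 14 for skeletal muscle genes, so this lead was not particular to neutrophil or luminal genes. The part of neutrophils in the values of LTF was not tested. The elastase ELANE, a defining granule gene, stayed at 7.26 to 25.8 in barrow pools and 4.85 to 19.7 in boar pools. Summed signals of the neutrophil list ran from 2217 to 2809 in barrow pools and from 2568 to 3103 in boar pools.

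Of 6 plasma cell and immunoglobulin genes 0 passed (2 had an unadjusted p under 0.05), with a median difference of -0.19. JCHAIN, which joins the immunoglobulin A units that PIGR carries, had 495, 228 and 432 in barrow pools and 554, 360 and 684 in boar pools (-0.48, limma adjusted p = 0.67). It was lowest in barrow replicate 2, the pool in which the brighter PIGR probe set was highest. The heavy chain transcript LOC396781 had 2356, 1000 and 2093 in barrow pools and 4601, 3614 and 4485 in boar pools, also lowest in barrow replicate 2 (-1.30, limma adjusted p = 0.094, and called with the replicate number as a block). XBP1, a factor of secretory cells in general, had -0.06 (adjusted p = 0.84).

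Hormone signals known to act on PIP were examined next. Of 11 measured genes of prolactin, androgen and related signalling 0 passed the test (1 had an unadjusted p under 0.05), and the median difference was 0.03. The growth hormone receptor GHR had 1877 to 2370 in barrow pools and 1985 to 2282 in boar pools (0.03, adjusted p = 0.96), and the prolactin signal carrier STAT5B had 653 to 806 in barrow pools and 638 to 711 in boar pools (0.09, adjusted p = 0.84, and -0.11 at its other probe set). STAT3, a carrier of cytokine signals, had a difference of -0.10 (adjusted p = 0.76). The prolactin receptor PRLR was dim, at 5.10 to 17.5 in barrow pools and 6.36 to 26.4 in boar pools. The androgen receptor was not analysed here.

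The progesterone receptor PGR, a marker of hormone-responsive gland cells that stromal cells also make, had 31.0, 13.1 and 16.9 in barrow pools, against 2.91, 2.42 and 3.34 in boar pools. Its groups did not overlap (0.91, limma adjusted p = 0.23), and the highest was barrow replicate 1. Of the 7 listed binding partners of PIP 0 passed (2 had an unadjusted p under 0.05), and fibronectin FN1 had 9862, 6303 and 9749 in barrow pools and 8082 to 8536 in boar pools (0.04, adjusted p = 0.97), lowest in barrow replicate 2. Actin, ACTB, had 0.28 (adjusted p = 0.32).

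Of 13 adipocyte genes 1, the leptin gene LEP, rose in barrows (0.58, limma adjusted p = 0.037, a call lost without any 1 of the 6 pools) and 0 fell, and of 14 skeletal muscle genes 0 passed the test, nor had any an unadjusted p under 0.05. Their median differences were 0.07 and 0.12. The desaturase SCD had 0.12 (adjusted p = 0.71), and the muscle genes CA3, which fat cells also make, DES and CKM had 0.01, 0.46 and -0.16 (adjusted p = 0.99, 0.64 and 0.89). Summed adipocyte signals ran from 129324 to 141938 in barrow pools and from 128927 to 136965 in boar pools.

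**Figure D3:**
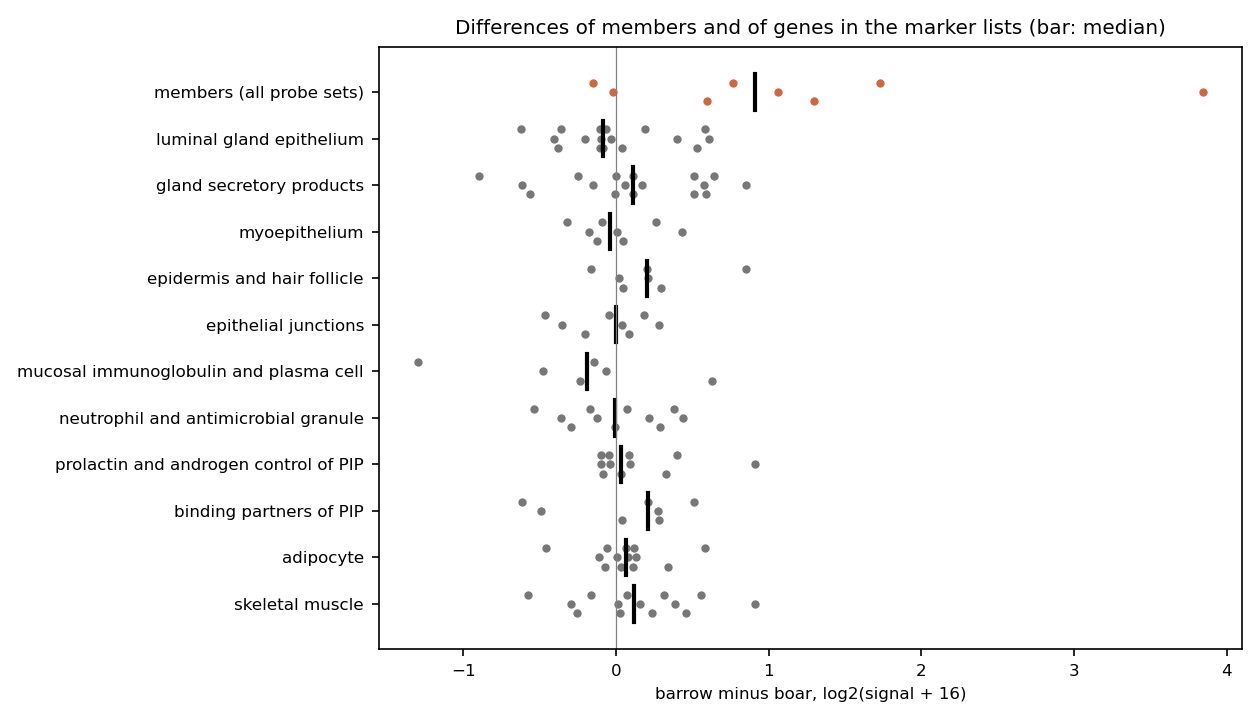
Barrow minus boar difference in log2(signal + 16) for the 8 member probe sets (orange, top row) and for the measured genes of 11 marker lists (grey, 1 point per gene at its brightest probe set), with a black bar at each median. The members, chosen with results known, reach 3.84, while the medians of the lists lie between -0.19 and 0.21.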

How the data were processed

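The deposited table gives each array 1 linear intensity for every probe set. These intensity values were made with MAS5, per the submitters' processing notes, with its version not given in the sources used here. The trimmed mean (2% cut from each end) of every array was 500.1, which shows a scaling of each array, and it was kept.

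Of 24123 probe sets, the platform annotation gave 10099 a single symbol, 198 several and 13826 none. The gene identifiers of 9989 were found in RefSeq (Sscrofa11.1), and 0 symbols changed. Coordinates are left out, as the array has no stated build.

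All 23999 non-control probe sets were compared as log2(signal + 16) by limma 3.58.1 in R 4.3.3 (lmFit, eBayes with intensity trend, 2-sided, Benjamini-Hochberg over all, threshold 0.05), barrow minus boar, and the script was tested on simulated data. P-values and SEs rest on the spread between pools, which eBayes draws toward the trend over all probe sets. A listed gene was represented by its brightest probe set, and 115 of 215 listed genes were measured. Named were all members, the listed genes past the threshold, the 3 brightest genes of each list (5 for the luminal and secretory lists), the 8 probe sets with a symbol and 2 without that were most like PIP, and the neighbours of PIP. Other listed genes (ESRP1, CSN1S1, AQP5, KRT1, KRT8 at its dimmer probe set, PERP, ELANE, PRLR and PGR) were named after their values were seen. The members and lists were chosen with earlier results of these data known. Alternatives covered the added constant, filter, scaling, trend, array weights, block, single pools and probe set averaging.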

Additional observations from a re-analysis of the deposited data

How the results depend on the processing

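PIP was chosen for its rise and each barrow pool was above each boar pool, so the sign of its difference carries no support. Only the size of its log2 difference, 3.84, is described here. The size was 2.64 with 64 added to the signals, 4.63 with 4 added, and 2.93 to 4.32 when 1 pool was left out, lowest without barrow replicate 2. The median difference of the 7 other member probe sets, 0.77, was 0.40 with 64 added, 1.24 with 4 added and 0.51 to 1.12 when 1 pool was left out. It could not be given for the upper 60% by mean signal, since 0 of the 7 lay there. The sign of the dimmer CDH1 and PIGR probe sets changed when single pools were left out (-0.56 to 0.22 and -0.06 to 0.06). The count of 4 among the 7 that were highest in barrow replicate 2 was the same under quantile and median scaling. Of the 8 member probe sets 0 to 2 were called, with PIP called with 4 added, with array weights, in the upper 60% and without barrow replicate 2. Nothing is read from these calls of PIP, which was chosen on this contrast. PIP passed the upper 60% filter, a mean signal of at least 95.6, only through its barrow pools (mean 645, against 15.8 in boar pools). The number of called probe sets, 96, was 172 in the upper 60%, where fewer were tested, 0 without the intensity trend (2004 had an unadjusted p under 0.05), 159 with array weights, and 12 to 141 when 1 pool was left out: 25 without barrow replicate 1, 22 without barrow replicate 3, 12 without boar replicate 1 and 20 without boar replicate 3. Among the listed genes 1 was called. That count was 4 in the upper 60%, 2 with quantile normalization, 2 with array weights, 0 without the trend, 0 with the mean of a gene's probe sets and 0 to 1 when 1 pool was left out, never LEP (LOC396781 without barrow replicate 2 and SAL1 without boar replicate 2). The cause of these shifts was not tested. A replicate block gave 171 called probe sets and 5 called listed genes (LOC396781, RBP4, AZGP1, LEP and SAL1). The deviations of pools with the same number correlated at 0.05 to 0.10 over all probe sets, against -0.07 to -0.01 for other combinations, and at 0.12 to 0.26 in the upper 60%, against -0.20 to -0.004. Every pair passed 0.1 in the upper 60% and none over all probe sets fitted. The labels tie no number to shared litters, so the numbers were not taken to pair the pools, although each pool correlated best with its own number. Most members lie among dim probe sets, where the number of arrays limits the precision and signals above background are not shown.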

Other observations

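The genes that lie nearest to PIP in the RefSeq table and have a probe set ranked from 1579 to 22010 among all probe sets in likeness to its profile, as measured above. The glutathione transferase GSTK1 had 1044 to 1240 in barrow pools and 1137 to 1158 in boar pools (-0.04, limma adjusted p = 0.93), and the apoptosis protease CASP2 had 361 to 392 in barrow pools and 328 to 425 in boar pools (-0.02, adjusted p = 0.98). TMEM139, a membrane protein, had 207, 202 and 140 in barrow pools and 143, 146 and 114 in boar pools (0.39, adjusted p = 0.595). On the other side, the calcium channel TRPV6 had 10.9, 52.3 and 62.3 in barrow pools and 23.3 to 30.2 in boar pools (0.32, limma adjusted p = 0.86). LOC100621559 had 268 to 282 in barrow pools and 298 to 522 in boar pools (-0.52, adjusted p = 0.385), and the trypsin PRSS2 had 12.1 to 62.4 in barrow pools and 8.01 to 25.3 in boar pools (0.52, adjusted p = 0.74).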
